A study of Drosophila melanogaster with 8 samples.

Results

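The aminoacyl-tRNA synthetase genes were chosen by name: a protein-coding gene belonged if its symbol in the Ensembl gene models held a three-letter amino-acid code directly followed by RS. This gave 35 of 13968 protein-coding genes on the chromosome arms. The 15 genes with the suffix -m encode mitochondrial enzymes, and the other 20 were counted as cytosolic, among them GlyRS, HisRS and LysRS, whose single genes are known to serve both compartments. Occupancy by the transcription factor Daughterless (Da) at these genes was read from anti-FLAG ChIP-seq of whole Drosophila melanogaster heads from adults of 1 to 3 days of age. Flies called 3xFLAG-Da carry the tag on their endogenous Da protein, whereas the Control flies (white*) lack any FLAG sequence. Both lines went through the same precipitation with anti-FLAG (F1804), from heads of both sexes, and 2 immunoprecipitated (IP) libraries of each line were analysed here as lists of peaks called against their own input. A head holds neurons, glia, photoreceptors, fat body and muscle, and the share of cells in which a site is occupied and the occupancy per cell cannot be told apart in it.

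Aminoacyl-tRNA synthetases join each amino acid to its tRNA and so set the supply of charged tRNA for translation. The cytosolic enzymes serve ribosomes in the cytoplasm, while a second set, encoded in the nucleus and imported, serves the ribosomes of the mitochondrion. In mammals, part of the cytosolic set is held together in the multisynthetase complex. Da is the only E-protein of the fly, a basic helix-loop-helix (bHLH) factor that binds the E-box CANNTG as a homodimer or with a partner bHLH protein.

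Most synthetase genes had a Da peak within 1000 bp of a start, and at this distance the cytosolic set was covered more fully than the mitochondrial set. A promoter peak was one whose summit, the position of highest signal, lay within 1000 bp of an annotated transcript start. In 3xFLAG-Da IP replicate 1, 31 of 35 synthetase genes had such a peak, against 55.6% of all protein-coding genes. All 20 cytosolic genes and 11 of the 15 mitochondrial genes were among them. In 3xFLAG-Da IP replicate 2, 24 of 35 did so, against 44.4% of all genes, namely 16 cytosolic and 8 mitochondrial genes. The Control IP lists had next to nothing at these promoters: 0 of 35 genes in replicate 1, where 2.62% of all genes had a promoter peak and 0 of 35 allows a share of up to 8.57%, and 1 of 35, AlaRS-m, in replicate 2, where 4.62% did. The mean was 27.5 ± 4.95 genes in the 3xFLAG-Da IP libraries and 0.5 ± 0.707 in the Control IP libraries (SD, n = 2 each), a difference of 27. For the cytosolic genes the means were 18 ± 2.83 and 0, and for the mitochondrial genes 9.5 ± 2.12 and 0.5 ± 0.707. The groups of libraries did not overlap in any of these 3 counts, and the exact permutation test over libraries (two-sided) gave p = 0.333 in each, also after Benjamini-Hochberg adjustment, which is the smallest p that 2 libraries against 2 allow.

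**Figure D1:**
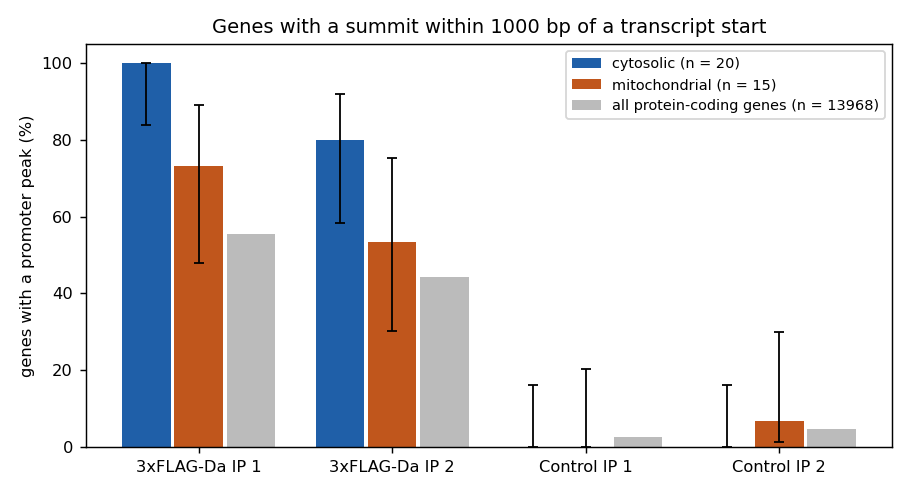
Share of genes with a promoter peak (%) in each of the 4 IP lists, for the 20 cytosolic and 15 mitochondrial synthetase genes and for all 13968 protein-coding genes; error bars are 95% Wilson intervals, which cover counting error only. The cytosolic bars stand at 100% and 80% in the 3xFLAG-Da IP lists, above the mitochondrial bars at 73.3% and 53.3% and the bars of all genes at 55.6% and 44.4%.

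Every synthetase gene with a promoter peak in replicate 2 also had a peak in replicate 1. Nearly the same held over all protein-coding genes, where 5994 of the 6195 with a replicate 2 promoter peak had one in replicate 1. Thus 24 of 35 synthetase genes, 68.6% (95% Wilson interval 52.0 to 81.4%), had a promoter peak in both 3xFLAG-Da IP lists, against 42.9% of all protein-coding genes. This held for 16 of 20 cytosolic genes, 80% (58.4 to 91.9%), and for 8 of 15 mitochondrial genes, 53.3% (30.1 to 75.2%). With the Control lists taken into account, 23 genes had peaks in both 3xFLAG-Da IP lists and in neither Control IP list, against 38.1% of all genes. These were the cytosolic ArgRS, AsnRS, AspRS, CysRS, GlnRS, GluProRS, GlyRS, HisRS, IleRS, LeuRS, LysRS, SerRS, ThrRS, TrpRS, TyrRS and beta-PheRS, and the mitochondrial ArgRS-m, AsnRS-m, AspRS-m, LeuRS-m, PheRS-m, TrpRS-m and TyrRS-m. AlaRS-m had peaks in both 3xFLAG-Da IP lists and in a Control IP list. AlaRS, MetRS, ValRS, alpha-PheRS, IleRS-m, MetRS-m and ProRS-m had a peak in replicate 1 only. CysRS-m, GluRS-m, SerRS-m and ValRS-m had none in any list, and their nearest 3xFLAG-Da summits lay 2081 bp or more from a start. The order of the sets rested on the width of the window: within 100 bp of a start, 6 of 20 cytosolic and 5 of 15 mitochondrial genes had peaks in both 3xFLAG-Da IP lists and no Control peak. The share of all protein-coding genes was not computed at 100 bp, so these counts cannot be set against it. Genes are not replicates, and the difference between the enzyme sets and between them and all genes is given as a description.

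Depth differed between the libraries. Coverage, as recovered from the peak values, came to 9.36 fragments per position in replicate 1 and 4.17 in replicate 2 of 3xFLAG-Da IP and to 1.92 and 1.72 for the Control IP replicates, so a weak peak had less chance of being called in the Control. Of the 31 peaks of replicate 1, 24 would still have reached the lowest significance in the deeper Control list if scaled to its coverage, as would 19 of the 24 of replicate 2. Among the 23 genes with peaks in both lists and none in the Control, this held in both lists for 17, namely 12 of 16 cytosolic and 5 of 7 mitochondrial genes. At the other 6, a peak of the same strength would not have been called at the Control depth in at least 1 of the lists. The matching share of all genes was not computed.

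The letters of the promoters held a feature that the choice of genes did not use. CAGCTG, the palindromic E-box with the GC core, stood in the 250 bases before and 50 after the outermost start of 17 of 35 synthetase genes, 48.6%, against 17.6% of all 13968 protein-coding genes. It was as common in the cytosolic set, 10 of 20, as in the mitochondrial set, 7 of 15. The excess was not particular to CAGCTG. In the same promoters CAGGTG stood in 7 of 35, 20%, against 9.31% of all genes, and CAGATG in 8 of 35, 22.9%, against 11.3%. CACTTG went the other way, with 4 of 35, 11.4%, against 17.2%. The remaining E-boxes of the CANNTG form lay closer to their shares of all promoters. Of all 2080 words of 6 bases, read on both strands, CAGCTG had the largest difference between synthetase promoters and all promoters, 30.9 percentage points, and the next word differed by 27.3 points. This ranking was made after the count had been seen, the words overlap each other, and it is a description with no test. The promoters were not richer in G and C, with a median of 35.3% in the synthetase genes and 38% in all genes. CAGCTG was also more frequent over the genome where Da peaks were. It stood in 23.5% of all genes with peaks in both 3xFLAG-Da IP lists and in 13 of the 24 synthetase genes with them, 54.2%, and in 13.2% of all genes without such peaks and in 4 of the 11 synthetase genes without them, 36.4%. By gene arrangement, it stood in 22.0% of genes with a divergent neighbour within 1000 bp and in 13 of 24 such synthetase genes, and in 15.2% of genes without a divergent neighbour and in 4 of 11 such synthetase genes.

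The sequences around some of the copies of CAGCTG are shown to make its surroundings visible, with 12 bases to each side on the strand of the gene, in BDGP6 coordinates. Capitals mark the E-box. Enzymes of the cytosol come first, and MetRS-m and GluRS-m, at the end, are the 2 mitochondrial genes here without peaks in both 3xFLAG-Da IP lists.
ArgRS (X:15844175-15844204, minus strand): gcgtgacatcacCAGCTGttatcgttatcg
GluProRS (3R:23958346-23958375, minus strand): tgtagacgttagCAGCTGgccgtactcgtg
IleRS (3L:22288574-22288603, plus strand): cagtgctgtcgtCAGCTGattatcaaggat
SerRS (2L:3037515-3037544, minus strand): gactattttgaaCAGCTGctaaaagcaagt
TrpRS (3R:9267019-9267048, minus strand): tttgcagcgcaaCAGCTGattttccagagt
TyrRS (3L:16419318-16419347, minus strand): cagctgtagaaaCAGCTGatcaccacgcat
alpha-PheRS (X:8145830-8145859, minus strand): tcttggcgtcaaCAGCTGtttttattggag
ArgRS-m (3R:7887054-7887083, plus strand): gtgatgtcaaaaCAGCTGatgtgcagcgat
LeuRS-m (3L:4825851-4825880, plus strand): gatgcagagaaaCAGCTGttcgattgtaga
MetRS-m (3R:14259979-14260008, minus strand): gcactggtggcaCAGCTGttcaatgttata
GluRS-m (3L:16417153-16417182, minus strand): tctagtttcgatCAGCTGtttggggtaaac

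In these lines the E-box is often followed by TT or AT, or preceded by their reverse complement. The lines do not hold every copy, and the copies of HisRS and TrpRS-m and the more upstream copy of TyrRS, not among them, lack these flanks. The word CAGCTGTT, on either strand, stood in 13 of 35 synthetase promoters, 37.1%, against 7.60% of all promoters, and CAGCTGAT in 8 of 35, 22.9%, against 5.21%. Part of this excess is that of CAGCTG itself. Among promoters with CAGCTG, CAGCTGTT stood in 13 of 17 synthetase genes and in 1061 of 2464 of all genes, and CAGCTGAT in 8 of 17 and in 728 of 2464. The 2 words share the E-box, and an E-box flanked on both sides can hold both. Both were chosen after the sequences were read.

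The 17 promoters held 21 copies of CAGCTG, of which 14 lay upstream of the start and 17 within 100 bp of it. AlaRS-m had 3 copies, and TyrRS and TyrRS-m had 2 each. Of the 17 genes, 16 had a Da peak in at least 1 list, GluRS-m being the exception, as did 31 of all 35 synthetase genes. Peaks in both lists stood at 13 of the 17, and at 1408 of the 2464 protein-coding genes with CAGCTG. In the 16 genes, the distance from the nearest 3xFLAG-Da summit of either list to the nearest copy had a median of 40.5 bp and ran from 0 to 174 bp, and it was within 100 bp in 10. Copies were sought only near the start, where most summits lay, and the nearest pair was taken. Short distances were thus partly built in, and the same distance was not measured for all genes. The summit of replicate 2 stood on the E-box of TrpRS, and that of replicate 1 on 1 of the copies of TyrRS-m. In ArgRS the E-box lay 130 and 132 bp from the summits of replicates 1 and 2, and in LeuRS-m 124 and 114 bp, so a strong peak did not always have its summit on this letter string.

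At the summits themselves, E-boxes were closer to the background. Within 50 bp of the stronger of the 2 summits, CAGCTG stood at 4 of the 24 synthetase genes with peaks in both lists, 16.7%, against 12.4% of the 5994 protein-coding genes with such peaks. CAGATG stood at 3, 12.5%, against 5.22%, and CAGGTG at 1, against 5.76%. Together the 3 E-boxes stood at 7 of 24, 29.2%, against 21.6%, with 3 of 16 cytosolic genes (HisRS, LysRS and TrpRS) and 4 of 8 mitochondrial genes (AlaRS-m, PheRS-m, TrpRS-m and TyrRS-m). Any E-box of the CANNTG form stood at 13 of 24, 54.2%, against 44.0%.

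Stretches that hold these E-boxes, taken from within 50 bp of the summit, are shown for LysRS, AlaRS-m, HisRS, TrpRS-m and TrpRS, on the strand of the gene. They were shortened to at most 30 bases of untranslated transcript sequence, so those of LysRS, HisRS and TrpRS-m do not reach the summit base. All 30 bases shown of HisRS and AlaRS-m and 23 of the 30 of LysRS lie in an annotated untranslated leader, of the synthetase or of a neighbouring gene, and not in sequence upstream of every start. Capitals mark CAGCTG or CAGATG. TrpRS-m also has a CAGATG near its summit, outside the stretch. In LysRS CAGATG is read from the other strand, as CATCTG, and in AlaRS-m the 2 upstream copies of CAGCTG follow each other with no base between them.
LysRS (X:9608862-9608891, minus strand): tcgatttatgccCATCTGgcagcgctggtc
AlaRS-m (3L:5146021-5146050, plus strand): aaaatagaaCAGCTGCAGCTGgtgagcacg
HisRS (X:18515438-18515467, plus strand): tggccagcagcgcagaaaaagCAGCTGaaa
TrpRS-m (3L:17849689-17849726, plus strand): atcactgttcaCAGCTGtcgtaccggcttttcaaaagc
TrpRS (3R:9266905-9266992, minus strand): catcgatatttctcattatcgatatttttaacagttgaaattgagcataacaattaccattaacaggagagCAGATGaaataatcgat

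By contrast, the strongest mitochondrial gene and the second strongest cytosolic gene by mean rank had none of the 3 E-boxes within 50 bp of the summit, whose base is the middle of each stretch.
LeuRS-m (3L:4825701-4825801, plus strand): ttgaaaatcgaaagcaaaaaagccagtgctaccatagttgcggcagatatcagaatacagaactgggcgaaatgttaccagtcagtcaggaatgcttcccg
ArgRS (X:15844271-15844371, minus strand): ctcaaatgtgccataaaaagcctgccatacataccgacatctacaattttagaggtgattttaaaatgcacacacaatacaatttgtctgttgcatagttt

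Among other promoter words, the core of the DNA replication-related element, TATCGATA, stood in 5 of 35 synthetase promoters, 14.3%, against 9.36% of all promoters, in AlaRS, ArgRS, IleRS, TrpRS and PheRS-m. The Motif 1 core GGTCACAC, another element of broadly used fly promoters, also stood in 5, against 7.69%, in GlnRS, beta-PheRS, AsnRS-m, AspRS-m and ProRS-m. TGATGNAA, the element read by ATF4, which is known to drive synthetase genes in mammals under amino-acid stress, stood in 2, CysRS and beta-PheRS, 5.71% against 4.07%. All words were searched on both strands. The first 2 words also varied with gene arrangement. With a divergent neighbour within 1000 bp, the TATCGATA core stood in 3 of 24 synthetase genes against 15.8% of all such genes, and the Motif 1 core in 3 of 24 against 13.2%. Without one, each stood in 2 of 11 synthetase genes, against 5.71% and 4.56%.

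Cytosolic enzymes known from the mammalian multisynthetase complex had a higher median fold percentile than the others, with wide overlap. Fold enrichment is the number of fragments over the summit divided by the local background, with 1 added to both, and the fold percentile gives the place of a peak among all peaks of its own list. Of the 8 enzymes of the complex, all had a peak in replicate 1, with folds from 4.52 to 9.01 and a median percentile of 85.8, and 7 had a peak in replicate 2, with folds from 2.98 (LeuRS) to 15.3 (LysRS) and a median percentile of 80.8, MetRS being the gene without one. Of the 12 other cytosolic genes, all had a peak in replicate 1 with a median percentile of 72.6, and 9 in replicate 2 with a median percentile of 35.3. All 8 genes of the complex were head-to-head with a divergent neighbour, against 9 of the 12 others, and SerRS, HisRS and beta-PheRS, outside the complex, were high in both lists. The grouping was made with these folds known and was not tested.

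LysRS, which charges lysine and, from a single gene, serves both the cytosol and the mitochondrion, had the best mean rank of the cytosolic genes. It reached a fold of 8.34 in replicate 1 of 3xFLAG-Da IP and 15.3 in replicate 2, percentiles of 92.1 and 97.5, with no peak in either Control list. The summits lay 48 and 6 bp upstream of the nearest start, which was not the same start in both replicates, since LysRS has 2. The replicate 1 summit lay between LysRS and the divergent Hecw, and that of replicate 2 inside the LysRS gene. ArgRS, for arginine, had folds of 7.24 and 11.6, percentiles of 87.4 and 93.6, and no Control peak. Its summits fell within 2 bp of each other, about midway between its start and that of the divergent CG8578. GluProRS, a single chain that charges both glutamate and proline, had folds of 9.01 and 7.75, percentiles of 94.3 and 80.8, and no Control peak. It had the highest fold of the cytosolic genes in replicate 1. SerRS, for serine, had folds of 8.20 and 7.64 with summits 30 and 56 bp inside the gene and no Control peak. HisRS, for histidine, likewise a single gene for both compartments, had folds of 6.53 and 9.08 and no Control peak. Its start is also annotated as a start of Bx, a LIM-domain gene transcribed in the same direction, so these 2 genes cannot be told apart at that peak.

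The other cytosolic genes with peaks in both lists ranged more widely, and none had a Control peak. GlnRS, for glutamine, and beta-PheRS, the editing subunit of the cytosolic phenylalanine enzyme, were high in both replicates, with folds of 6.15 and 8.78 for GlnRS and 6.63 and 8.67 for beta-PheRS. The summits of beta-PheRS lay 4 and 3 bp from its start. IleRS, for isoleucine, had nearly equal folds of 6.73 and 6.87, but its summits lay 349 bp apart. AspRS, AsnRS, GlyRS and TrpRS, for aspartate, asparagine, glycine and tryptophan, lay between 4.01 and 5.99 in both lists. CysRS, for cysteine, was low in both, at 3.54 and 3.81. LeuRS, ThrRS and TyrRS, for leucine, threonine and tyrosine, had lower folds in replicate 2, with 5.18 and 2.98 for LeuRS and 7.03 and 3.50 for ThrRS. The fold of TyrRS was 6.67 in replicate 1, at percentile 83.9, and 2.57 in replicate 2, at percentile 1.42. TyrRS thus ranked as a strong peak in replicate 1 and among the weakest in replicate 2.

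Among the mitochondrial enzymes, LeuRS-m had the highest fold in both 3xFLAG-Da IP lists, 9.76 and 14.0, with percentiles of 96.0 and 96.6 and no Control peak. Its summits were made of 171 and 102 fragments and lay 112 and 102 bp upstream of its start, nearer to the start of Dhc64C, the dynein heavy chain gene on the other strand. AlaRS-m, the mitochondrial alanine enzyme, had folds of 7.68 and 13.9 in the 3xFLAG-Da IP lists, no peak in Control IP replicate 1 and a fold of 5.69 in Control IP replicate 2. Its 3xFLAG-Da summits lay 3 and 13 bp from the start of the divergent Fitm, nearer than to that of AlaRS-m, and on the Fitm side. The Control summit was made of 19 fragments, against 149 and 95 in the 3xFLAG-Da IP libraries, and lay 11 bp upstream of the AlaRS-m start, against 38 and 48 bp. It is the only synthetase promoter with a called peak in the line that has no tag, and how much of the tagged signal there is due to the antibody alone was not tested. TrpRS-m had folds of 6.96 and 7.73, ArgRS-m 5.72 and 8.95, and AspRS-m 6.99 and 7.01, all with no Control peak. These 3 genes were thus in the top 25% of both lists. PheRS-m, a single-chain enzyme unlike its cytosolic counterpart, had middling folds of 4.62 and 4.11. TyrRS-m at 2.97 and 3.50 and AsnRS-m at 1.78 and 3.08 were low in both, and the fold of AsnRS-m in replicate 1 stood at percentile 0.220, at the very edge of that list.

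**Figure D2:**
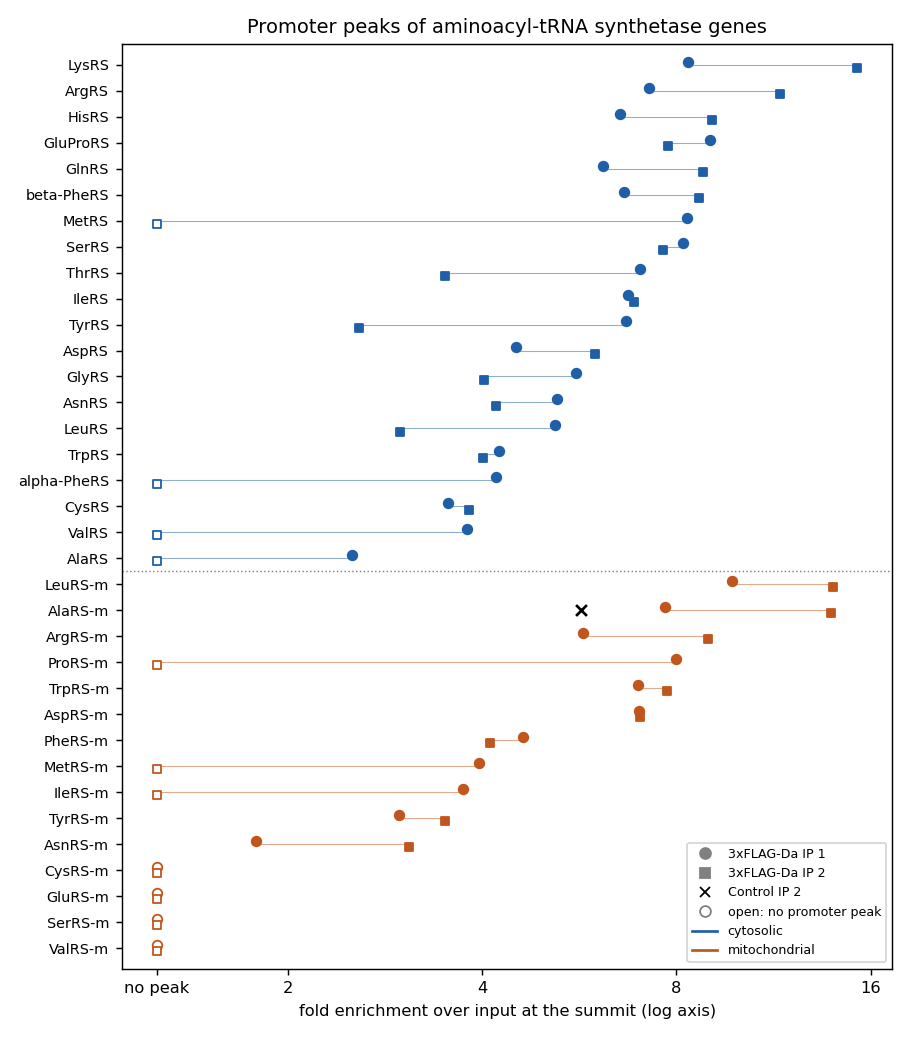
Fold enrichment over input (log axis) of the highest promoter peak of each synthetase gene in 3xFLAG-Da IP 1 (circles), 3xFLAG-Da IP 2 (squares) and Control IP 2 (cross), with cytosolic genes above and mitochondrial genes below; open symbols stand for no promoter peak and have no value on the axis. LysRS reaches 15.3, LeuRS-m 14.0 and AlaRS-m 13.9 in replicate 2, and 4 mitochondrial genes have no peak.

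By median and by share in the top 25%, synthetase peaks ranked above those of other promoters, but weak peaks were not rarer in replicate 2. The median fold percentile of the 31 peaks of replicate 1 was 79.6, with 81.1 for cytosolic and 76.0 for mitochondrial genes, against 68.2 for all protein-coding genes with a promoter peak. In replicate 2 it was 75.4, with 70.7 and 78.3, against 64.4. In the bottom 25% of the list lay 2 of 31 synthetase peaks in replicate 1, against 849 of 7763 over all genes. In replicate 2 it was 5 of 24, against 914 of 6195. The share in the top 25% of the list was 17 of 31, 54.8%, against 40.8% in replicate 1, and 12 of 24, 50%, against 37.3% in replicate 2. The same 12 genes, 7 cytosolic and 5 mitochondrial, were in the top 25% of both lists. The share of all genes in the top 25% of both was not computed. So the mitochondrial set had fewer promoters with a peak, whereas the peaks it had ranked about as high as the cytosolic ones.

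**Figure D3:**
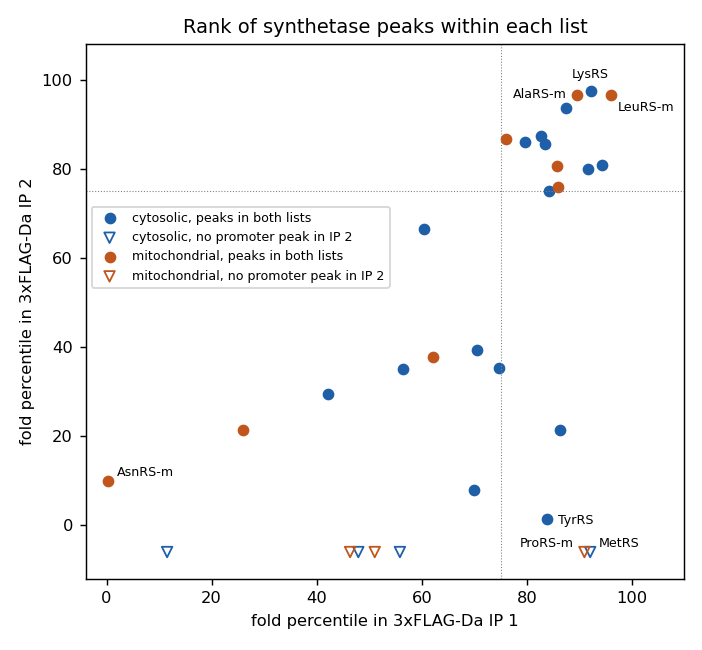
Fold percentile of each synthetase peak within 3xFLAG-Da IP 1 (x axis) and 3xFLAG-Da IP 2 (y axis); dotted lines mark percentile 75, and triangles below 0 are genes with no promoter peak in replicate 2. The 12 genes at the upper right are in the top 25% of both lists, TyrRS falls from 83.9 to 1.42, and MetRS and ProRS-m have no peak in replicate 2 and percentiles of 92.1 and 91.0 in replicate 1.

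The 7 genes with a peak in replicate 1 only were not all weak. MetRS, which charges methionine and also the initiator tRNA, had a fold of 8.30 at percentile 92.1 in replicate 1, no peak in replicate 2 and none in the Control lists. ProRS-m, for mitochondrial proline, had a fold of 7.98 at percentile 91.0 in replicate 1 and none in the 3 other lists. Scaled to the coverage of replicate 2, these peaks would have had a −log10 p of 32.1 and 23.6, against 2.89 for the weakest peak of that list, and the nearest summits of replicate 2 lay 4038 and 16233 bp away. Under this scaling, all 7 genes called in replicate 1 only stayed above that value, down to 3.69 for AlaRS. Of all genes with a replicate 1 peak at or above percentile 90, 64 of 1359, 4.71%, lacked a promoter peak in replicate 2, against 2 of 6 synthetase genes. At or above percentile 75 the gap was smaller, with 261 of 3166 genes, 8.24%, against 2 of 17 synthetase genes, 11.8%. Why the lists differ at these promoters was not tested.

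The other 5 had lower folds in replicate 1 and no peak in the 3 other lists. alpha-PheRS, the catalytic subunit of the cytosolic phenylalanine enzyme, had a fold of 4.20, MetRS-m 3.95, ValRS 3.79, IleRS-m 3.73 and AlaRS 2.51. Scaled to the coverage of replicate 2, they would have had a −log10 p of 10.6 for alpha-PheRS, 8.66 for ValRS, 7.44 for IleRS-m, 7.14 for MetRS-m and 3.69 for AlaRS. The 2 subunits of the cytosolic phenylalanine enzyme thus differed, with beta-PheRS high in both lists and alpha-PheRS called in 1. At ValRS, a replicate 2 peak overlapped the replicate 1 peak with a summit 1097 bp from the start, just outside the window, and at AlaRS the nearest summit was 1019 bp away. Over all genes, 22.8% of those with a replicate 1 promoter peak had none in replicate 2, against 7 of 31 synthetase genes, 22.6%.

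For 15 amino acids the genome held both a cytosolic and a mitochondrial enzyme gene. Both had peaks in both 3xFLAG-Da IP lists for arginine, asparagine, aspartate, leucine, phenylalanine, tryptophan and tyrosine, where for phenylalanine the beta subunit was called. Only the cytosolic enzyme did for cysteine, glutamate, isoleucine, proline and serine. In these pairs, CysRS with 3.54 and 3.81 stood against no peak at CysRS-m, and SerRS with 8.20 and 7.64 against none at SerRS-m. GluProRS with 9.01 and 7.75 stood against none at GluRS-m and a replicate 1 peak of 7.98 at ProRS-m. IleRS with 6.73 and 6.87 stood against 3.73 in replicate 1 alone at IleRS-m. Alanine was the reverse case, since AlaRS-m had folds of 7.68 and 13.9 and AlaRS only 2.51 in replicate 1. The AlaRS-m summits lay nearer to the start of the divergent Fitm, so the peaks cannot be assigned to AlaRS-m alone. For methionine and valine neither enzyme had peaks in both lists.

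The arrangement of the genes differed between the sets in the same direction as the peaks. A head-to-head gene was one whose start had that of another protein-coding gene upstream on the opposite strand within 1000 bp. This was the case for 24 of 35 synthetase genes, 68.6%, against 36.2% of all protein-coding genes, with 17 of 20 cytosolic but 7 of 15 mitochondrial genes. Of the 24 head-to-head synthetase genes, 19 had peaks in both 3xFLAG-Da IP lists, 79.2%, against 67.3% of all head-to-head genes. Of the 11 without such a partner, 5 did, 45.5%, against 29.1%. Among head-to-head genes, 14 of 17 cytosolic (82.4%) and 5 of 7 mitochondrial genes (71.4%) had peaks in both lists, and among those without a partner, 2 of 3 cytosolic (66.7%) and 3 of 8 mitochondrial genes (37.5%) did, so the sets lay nearer to each other than overall in the former group and not in the latter. The part of the arrangement in the difference between the sets was not tested.

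A peak between divergent starts cannot be assigned to 1 of the genes. The partners included RIOK2, a kinase of small ribosomal subunit assembly, 123 bp from GlnRS, Hem, of the actin-regulating WAVE complex, 470 bp from IleRS, Plp, a centrosome protein, 418 bp from GlyRS, Vps16A, of endosomal traffic, 115 bp from TrpRS, and Kdm4B, a histone demethylase, 513 bp from ValRS. The closest was CG17260, 8 bp from SerRS. In replicate 1, the summits of 15 of 17 head-to-head cytosolic genes lay between the 2 starts, and 9 of the 20 cytosolic summits were nearer to another gene's start than to the synthetase's. At ValRS the summit was 26 bp from the start of Kdm4B and 487 bp from that of ValRS. In replicate 2, 6 of 14 lay between the starts, 7 on the synthetase side and 1 on the partner side, and 14 of the 16 cytosolic summits were nearest to the synthetase start. Among the mitochondrial genes, the summit was nearest to the synthetase start in 8 of 11 in replicate 1 and in 4 of 8 in replicate 2. The matching shares over all head-to-head genes and over all genes with a promoter peak were not computed. These positions are thus not shown to be particular to synthetase genes.

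Summits of the 2 replicates were closer together at the mitochondrial genes. Peaks of the 2 lists overlapped at all 24 genes that had both. The median distance between the summits was 51 bp, with 79 bp for the 16 cytosolic and 12 bp for the 8 mitochondrial genes, and it was within 50 bp in 5 of 16 and 7 of 8. Neither the overlap nor this distance was computed over all genes with peaks in both lists. Among the synthetase genes the distance was largest at AspRS, 355 bp, followed by IleRS, 349 bp, and by AsnRS and ThrRS, 288 bp each. At IleRS, AsnRS and ThrRS the summit of replicate 1 lay between the divergent starts and that of the highest replicate 2 peak inside the synthetase gene. ThrRS had a second replicate 2 peak of nearly the same fold, 3.33 against 3.50, with its summit 413 bp upstream of a start. The shift at ThrRS thus rested on which of these peaks was taken. At AspRS, which has 3 annotated starts, both summits lay inside the gene. The summit of replicate 1 was 152 bp from a start of Nmda1 and 334 bp upstream of an internal AspRS start. That of replicate 2 was 21 bp downstream of the same internal start. Around the start, the median position was 48 bp upstream in replicate 1 (all genes with a promoter peak, 95 bp) and 15 bp upstream in replicate 2 (63 bp). Within 200 bp lay 27 of 31 and 24 of 24 summits, against 5635 of 7763 and 4397 of 6195 over all genes with a promoter peak.

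**Figure D4:**
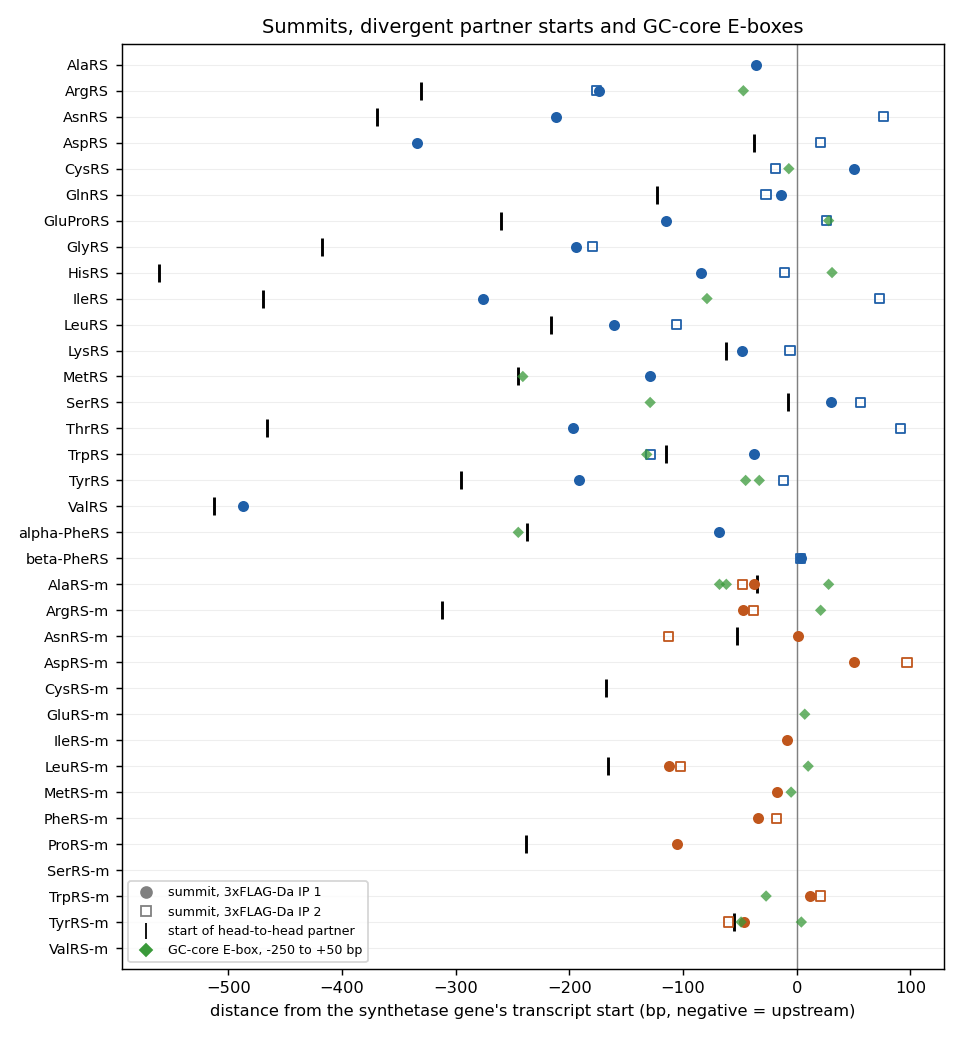
Position of the summit of the highest promoter peak relative to the nearest start of each synthetase gene (bp, negative is upstream) in 3xFLAG-Da IP 1 (filled circles) and IP 2 (open squares), with the start of the head-to-head partner (black bars, drawn by its distance from the synthetase start) and each E-box with the GC core between 250 bp upstream and 50 bp downstream of the outermost start (green diamonds); in genes with several starts, such as AspRS and LysRS, these zero points can differ. Circles of cytosolic genes (blue) lie mostly between the partner bar and the start, and at IleRS, AsnRS and ThrRS the squares lie to the right of the start.

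The genes that work beside the synthetases had peaks as well. All 9 genes listed had a promoter peak in 3xFLAG-Da IP replicate 1, against 55.6% of all genes, 7 had a peak in replicate 2, against 44.4%, and none of the 9 had a peak in a Control IP list. AIMP1, AIMP2 and AIMP3, scaffold proteins of the multisynthetase complex, had folds of 3.53, 2.98 and 2.89 in replicate 1, and of 9.63, no peak and 4.45 in replicate 2. Slimp, a mitochondrial protein derived from a seryl-tRNA synthetase, had 3.53 in replicate 1 alone. GatA, GatB and GatC, subunits of the amidotransferase that makes mitochondrial glutaminyl-tRNA from glutamyl-tRNA, had 8.15, 3.69 and 6.66 in replicate 1 and 9.20, 3.50 and 3.66 in replicate 2. Gcn2, the kinase that senses uncharged tRNA, had 4.53 and 5.18. crc, the fly ATF4, had 6.97 and 12.6, with summits at −774 and −781 bp from a start. GatA and crc were thus as high as the leading synthetases. The scaffold genes were low in replicate 1, but AIMP1 was high in replicate 2, at percentile 89.4.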

How the data were processed

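Each IP library had 1 deposited peak list, and the input libraries were not analysed here. According to the methods and the submitters' processing notes, the authors trimmed reads of 75 bp, mapped them to BDGP6 with Bowtie2 2.5.1, kept mapping quality of at least 20 and removed duplicates (SAMtools 1.12), and called peaks with MACS2 2.2.7.1 at q of 0.05, per IP library against its own input. The deposited values are the authors' fold enrichment (a ratio), −log10 p, −log10 q and a score, which was not used. Replicates are biological per the study and share numbers between the lines.

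Gene starts came from Ensembl release 115, and sequence from the RefSeq copy of genome Release 6. In it, 66 of 66 member transcripts began their coding sequence with ATG, and 0 peaks ran past an arm's end. Pileup and background were solved from fold and −log10 p under the Poisson model of MACS2, which matched all peaks within 0.002, and the lowest background was read as coverage. The steps were tested on simulated data. Peaks do not measure expression, so head markers were not checked.

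Values per library are given for the 5 genes of each class with the best mean fold percentile, those with a Control peak, those called in 1 tagged list, and amino acids for which exactly 1 class had peaks in both lists. Other values were named after they were seen. Members and lists were chosen with earlier results of these data known. Intervals cover counting error only. Python 3.11.15 and SciPy 1.17.1 were used.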

Additional observations from a re-analysis of the deposited data

How the results depend on the processing

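Of 65 values recomputed under another setting, 56 stayed within 1.5 times the main one, 9 moved further and 0 changed sign. With a window of 100 bp in place of 1000 bp, the difference between 3xFLAG-Da IP and Control IP libraries fell from 27 to 17.5 genes for all synthetases and from 18 to 10.5 for the cytosolic ones, and 6 cytosolic genes had peaks in both 3xFLAG-Da IP lists and no Control peak, against 16. The mitochondrial count went from 7 to 5, so that 6 of 20 cytosolic stood against 5 of 15 mitochondrial genes and the cytosolic set no longer led. By construction this leaves out summits farther than 100 bp from a start. With only genes that had no other gene start within 1000 bp, which removes 26 of the 35, the differences were 5, 1 and 4 for all, cytosolic and mitochondrial genes, and 1 cytosolic and 3 mitochondrial genes had peaks in both lists and no Control peak. With summits of both lists required within 100 bp, 10 cytosolic genes did. Leaving out each library in turn gave differences of 23.5 to 30.5, 16 to 20 and 7.5 to 10.5, and 16 to 20 cytosolic and 7 to 10 mitochondrial genes. Permuted within pairs of the same replicate number (replicate block), the differences of 27, 18 and 9 had an exact p = 0.5, the smallest 2 pairs allow. Whether the numbers pair the libraries could not be checked, since 2 pairs are too few. With 3xFLAG-Da IP peaks kept only if callable at Control depth, the differences were 21, 15 and 6. The share of all protein-coding genes was not computed under these other settings, so an excess over it is known only for the main setting.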
